A study of Rattus norvegicus with 6 samples.

Results

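Met and Mst1r, the receptors for hepatocyte growth factor and macrophage-stimulating protein, were examined together with their ligands Hgf and Mst1, the protease matriptase (St14) and the Kunitz-type inhibitors Spint1 and Spint2. The genes were taken by name, as every probe set whose only annotated symbol was one of these 7, and all 7 were found, with 1 probe set each, among 18166 genes. The samples were 3 arrays of control NRK-52E cells and 3 arrays of the same line with overexpressed NICD1, the Notch1 fragment that cleavage frees to enter the nucleus. NRK-52E is an established epithelial line derived from rat kidney tubules, grown here in medium with fetal calf serum. The domain was expressed from pINDUCER21, a lentiviral vector for inducible expression. The sources used here do not say what the control cells carried, whether an inducer was added, or whether a clone or a mixed population was used.

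Both ligands are secreted as inactive single chains and bind their receptors productively only after a serine protease has cut them. Matriptase is a membrane-anchored protease of epithelia that can make this cut, and the products of Spint1 and Spint2 (HAI-1 and HAI-2) inhibit it and related proteases. In the kidney, Met is carried by tubule epithelium while Hgf comes largely from stromal cells, and the pair is known for tubule branching and repair after injury. Mst1r, also called Ron, is the closest relative of Met.

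Median linear intensity per array lay between 57.5 and 60.1, and the arrays correlated at r = 0.993 to 0.995 within groups and 0.989 to 0.991 between groups (Pearson, log2, over probe sets, a description only). Notch1 was 0.66 higher on the log2 scale in NICD1 cells (SE 0.081; limma adjusted p = 0.00181). A background level of 5.74 on the log2 scale was taken from 1398 chemosensory receptor genes, as the 95th percentile of their means. Of 9 measured markers of kidney tubule epithelium 6 lay below it in both groups, namely Krt18 and the defining Cdh1, Epcam, Cdh16, Pax8 and Lrp2. The keratin Krt8 was well above it. Slightly above it in both groups were Pax2 (mean log2 5.93 in control and 6.00 in NICD1 cells) and Krt19 (5.96 and 5.92). The summed linear intensity of these 9 ranged from 1594 to 1647 in control and from 2974 to 3182 in NICD1 cells, and Krt8 was the 1 marker that rose. The fibroblast marker sum was 681 to 771 in control and 862 to 918 in NICD1 cells, with 5 of 9 below background, including Pdgfra and Lum, and Col1a1 as the 1 rise. Col1a1 (mean log2 7.78 in control and 8.68 in NICD1 cells), Pdgfrb (7.89 and 7.66) and Rgs5 (5.77 and 6.12) were above background in both groups. Thy1 was above it in NICD1 cells only. Leukocyte markers had 7 of 10 below background, including Ptprc and Csf1r, with 1 rise (Cd68) and sums of 2698 to 2789 against 2921 to 3052. Above background were Cd14 (mean log2 11.19 in control and 11.32 in NICD1 cells), Cd68 (6.72 and 6.99) and Cd79a (6.92 and 6.87). Most of the leukocyte sum was Cd14, which was not called. Endothelial markers had 4 of 5 below background, including Cdh5, with 1 fall (Tek) and sums of 328 to 359 against 269 to 283. The part of other cell types in the results was not tested.

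**Figure D1:**
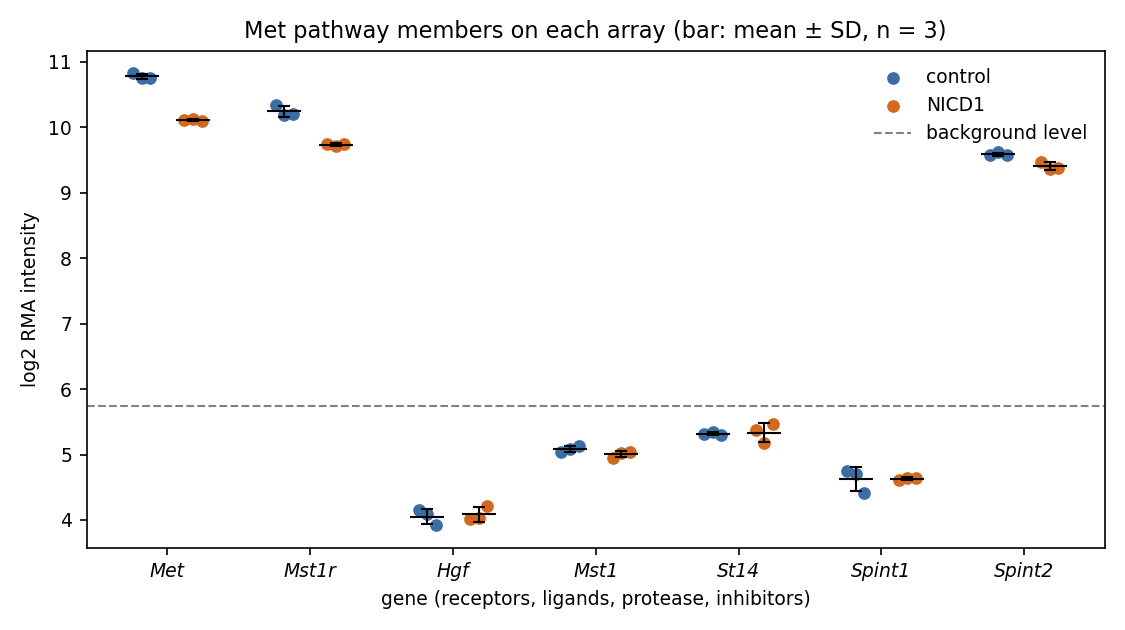
Log2 RMA intensity of the 7 genes on each of the 6 arrays, control in blue and NICD1 in orange, with the mean and SD of each group (n = 3) and the background level of 5.74 as a dashed line. Met, Mst1r and Spint2 lie above the line on every array and are lower in NICD1 cells, while Hgf, Mst1, St14 and Spint1 lie below it on every array; probe sets differ in brightness, so heights are comparable within a gene only.

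The 2 receptors fell in NICD1 cells and no member rose. In the fit across all genes 2 of the 7 members were called lower and 0 higher (limma, Benjamini-Hochberg adjusted p under 0.05), where 14.7% of all genes were called, 7.22% lower and 7.45% higher. At an unadjusted p under 0.05 the same fit gave 3 lower members and 0 higher. Their median log2 change was -0.07, beside 0.01 over all genes. Of the 3 members above background 2 were called, against 21.8% of all genes above background in at least 1 group. Of the 4 below it 0 were called, against 2.68% of genes below background in both groups. In cell cultures measured in bulk, fewer cells carrying a transcript and less of it per cell cannot be told apart.

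Met (Entrez gene 24553) encodes the receptor tyrosine kinase for hepatocyte growth factor. Its log2 intensity was 10.83, 10.75 and 10.76 on control replicates 1 to 3, and 10.11, 10.14 and 10.10 on NICD1 replicates 1 to 3. All 3 control arrays were above all 3 NICD1 arrays, with 0.62 between the lowest control and the highest NICD1 value. The mean fell from 10.78 ± 0.04 to 10.12 ± 0.02 (SD, n = 3 each). This was a log2 change of -0.66 (SE 0.051; 95% interval -0.78 to -0.55; limma adjusted p = 0.000187), or 1.59-fold lower. On the linear scale the geometric mean intensity was 1758 in control and 1109 in NICD1 cells, a change of -36.9%. An exact permutation test of Met alone (two-sided) gave p = 0.1, the floor for 3 arrays against 3. Ordered from the most negative change, Met stood at position 294 of 18166 genes and Mst1r at 480.

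Mst1r (Entrez gene 300999) encodes the receptor for macrophage-stimulating protein, expressed by epithelia and some macrophages. Control replicates 1 to 3 read 10.34, 10.19 and 10.21 on the log2 scale, and NICD1 replicates 1 to 3 read 9.75, 9.71 and 9.75. Again no NICD1 array reached any control array, and the gap between the groups was 0.44. Control replicate 1 was the highest of the 6 for Mst1r, as it was for Met. The mean fell from 10.25 ± 0.08 to 9.73 ± 0.02 (SD, n = 3 each), a log2 change of -0.51 (SE 0.060; 95% interval -0.65 to -0.37; limma adjusted p = 0.00141). This was 1.43-fold lower, or -29.8% in linear intensity. Without control replicate 1 the changes were -0.64 for Met and -0.46 for Mst1r, and both kept their calls.

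The within-array difference between Met and Mst1r was also compared. Log2 Met minus log2 Mst1r was 0.53 ± 0.04 in control (range 0.48 to 0.57) and 0.38 ± 0.04 in NICD1 cells (range 0.35 to 0.43; SD, n = 3 each). The ranges did not overlap, and the difference moved by -0.15 (SE 0.034). An exact permutation test (two-sided) gave p = 0.1, its floor, and 0.3 after Benjamini-Hochberg adjustment over the 3 pairs of related members compared. With 3 arrays against 3 this test could not reach 0.05, so it does not settle whether Met fell by more than Mst1r.

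The ligands were not measurable above background. Hgf (Entrez gene 24446) read 3.92 to 4.15 on the control arrays and 4.01 to 4.21 on the NICD1 arrays. These ranges overlapped, and the log2 change was 0.03 (SE 0.084; 95% interval -0.17 to 0.23; limma adjusted p = 0.858). Mst1 (Entrez gene 24566), which encodes macrophage-stimulating protein and not the kinase of the same abbreviation, read 5.04 to 5.13 in control and 4.95 to 5.04 in NICD1 cells. Its log2 change was -0.07 (SE 0.054; 95% interval -0.20 to 0.05; limma adjusted p = 0.461). The groups were apart by 0.0006 for Mst1, a non-overlap that 32.8% of all genes share. Since array values near background compress differences, these intervals bound the change in probe signal and not in transcript number.

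Matriptase and its inhibitor Spint1 were also below background on all 6 arrays. St14 (Entrez gene 114093) read 5.30 to 5.35 in control and 5.17 to 5.46 in NICD1 cells, a log2 change of 0.01 (SE 0.081; 95% interval -0.18 to 0.21; limma adjusted p = 0.943). The NICD1 arrays enclosed the control arrays for St14. Spint1 (Entrez gene 311331) read 4.42 to 4.75 in control and 4.61 to 4.65 in NICD1 cells, a change of 0.01 (SE 0.092; 95% interval -0.21 to 0.22; limma adjusted p = 0.977). The spread of Spint1 came from control replicate 3, the lowest of the 6 arrays.

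Spint2 (Entrez gene 292770), the broader-acting inhibitor of the pair, was above background throughout and slightly lower in NICD1 cells. Its log2 intensity was 9.57, 9.62 and 9.58 on control replicates 1 to 3 and 9.47, 9.37 and 9.37 on NICD1 replicates 1 to 3. The groups did not overlap and were 0.10 apart. The mean was 9.59 ± 0.02 in control and 9.41 ± 0.06 in NICD1 cells (SD, n = 3 each), a log2 change of -0.18 (SE 0.054; 95% interval -0.31 to -0.06). This missed the threshold over all genes (unadjusted p = 0.0116, adjusted p = 0.0691 in limma). It passed when the dimmest 30% of genes were left out (adjusted p = 0.0312) and with an intensity trend and robust prior (adjusted p = 0.0171). In the other 2 pairs compared, Hgf with Mst1 and Spint1 with Spint2, at least 1 gene lay below background on every array, so their within-array differences are not given as changes.

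**Figure D2:**
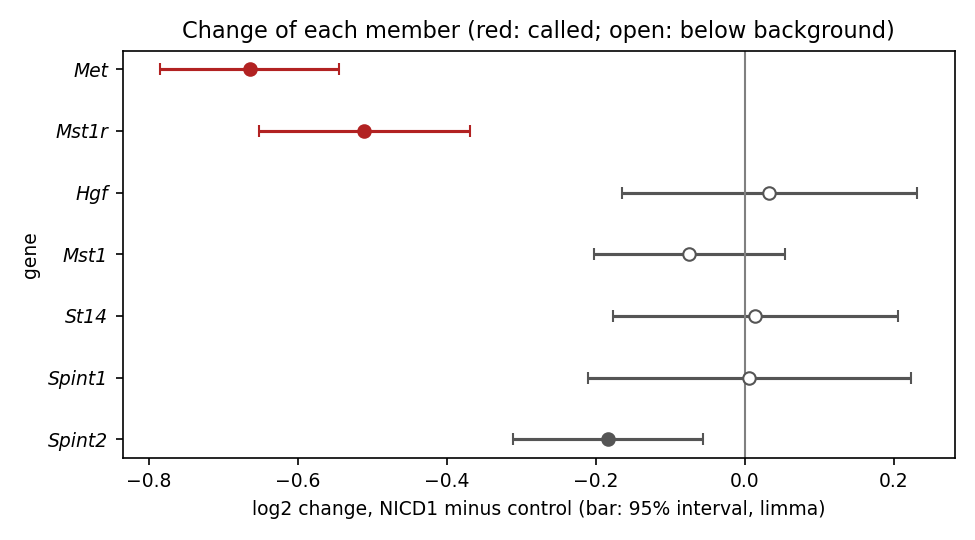
Log2 change of each of the 7 genes, NICD1 minus control, with its 95% interval from the limma fit (3 arrays per group). Met at -0.66 and Mst1r at -0.51, in red, were called; the interval of Spint2, at -0.18, excludes 0 without a call after adjustment; open symbols mark the 4 genes below background.

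The sequence upstream of the members was examined because Met and Mst1r fell together and because genes for DNA-binding repressors changed in these cells. RefSeq start windows (GRCr8) were given for 6 of the 7 members; St14 was without one. The windows were cut to the 250 bases before the listed start. For Hgf and Spint2 that start was the outer end of the RefSeq gene. It lay 264 bases inside the gene for Spint1, 957 for Mst1, 4040 for Mst1r and 27923 for Met. The windows of Spint1, Mst1, Mst1r and Met therefore lie inside the gene, and that of Met, the farthest inside, is not shown. Of the letters TGGGAA (bound by RBPJ, the DNA-binding partner of NICD1), CACGTG and CACGCG (bound by Hes and Hey repressors), searched on both strands, 0 of the 6 windows held any. Among all 33469 RefSeq windows of this length 22.1%, 5.59% and 7.14% held them. This says only that these letters were not in these windows.

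The letters CAGGTG, the E box bound by Snail-type repressors, were searched after the rise of Snai1 in these cells had been seen. They occurred on either strand in 4 of the 6 windows (Hgf, Mst1r, Spint1 and Spint2), against 15.9% of all windows. Of these 4 genes only Mst1r was called, and Hgf and Spint1 lay below background. As the letters were chosen after the values were seen, this share tests nothing about the falls. The GC box GGGCGG was also searched and occurred in 3 of the 6 windows (Mst1r, Spint1 and Spint2), against 30.5% of all windows. Spint2 held 3 copies of CAGGTG, which 0.236% of all windows did at that number or above. The CAGGTG copies of Spint2 began 132, 113 and 68 bases before the start, and that of Mst1r began 210 bases before it. The Spint2 window was also rich in G and C (69.6%, against a median of 51.2% over all windows; 56.8% for Mst1r). The windows of these 2 members, the ones above background with a match, are printed 5′ to 3′ on the gene's strand with CAGGTG in capitals. The Mst1r window is chr8:117475718-117475967 on the plus strand, and the Spint2 window is chr1:93708092-93708341 on the minus strand. That of Mst1r lies inside the RefSeq gene, with its listed start 4040 bases from the outer end. A match is a run of letters and was not shown to be bound.
Mst1r: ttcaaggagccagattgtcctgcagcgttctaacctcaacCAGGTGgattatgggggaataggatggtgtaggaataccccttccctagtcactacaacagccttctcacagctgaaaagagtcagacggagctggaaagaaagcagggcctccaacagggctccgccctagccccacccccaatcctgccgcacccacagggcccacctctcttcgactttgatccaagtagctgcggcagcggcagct
Spint2: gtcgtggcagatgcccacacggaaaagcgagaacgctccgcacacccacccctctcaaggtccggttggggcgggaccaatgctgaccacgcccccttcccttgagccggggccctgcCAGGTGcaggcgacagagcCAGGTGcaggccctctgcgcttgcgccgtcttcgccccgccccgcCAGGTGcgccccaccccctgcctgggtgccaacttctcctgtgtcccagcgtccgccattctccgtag

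Genes next to the members in the RefSeq order moved in both directions. Of the 28 measured genes that lay nearest, 2 on each side of each member, 4 rose and 3 fell. Among all genes 14.7% were called, and 21.8% of those above background, so the neighbours were near the general share. Next to Met, the caveolin gene Cav2 rose by 0.40 (SE 0.060; limma adjusted p = 0.00439) and ST7 rose by 0.34 (SE 0.049), while the neighbours directly on either side, Cav1 (0.13) and Capza2 (-0.05), did not pass. The 4 genes around Mst1r had changes from -0.15 (Actl11) to 0.04 (Rbm6), with limma adjusted p of 0.578 or above. Mst1r and Mst1 lie near each other on chromosome 8, with 11 RefSeq genes between them. Of the 10 measured in that interval, 2 rose and 0 fell, too few to set apart from the general share. Next to Hgf, Sema3c, a secreted semaphorin, fell by 1.43 on the log2 scale (SE 0.051; limma adjusted p = 1.01e-05).

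The genes with the profile most like that of Met over the 6 arrays were Prkcz, Arhgef28 and Ogn. Likeness was the root mean square difference of log2 values after each gene was centred on its own mean, and was 0.023, 0.024 and 0.027 for these 3. Prkcz, an atypical protein kinase C of the cell polarity machinery, changed by -0.64, the guanine nucleotide exchange factor Arhgef28 by -0.69 and the proteoglycan Ogn by -0.65. The genes most like Mst1r were Triobp (0.019), Pcsk5 (0.024) and Tlcd3a (0.027). Triobp encodes an actin-bundling protein and Pcsk5 a proprotein convertase, and their log2 changes were -0.51 and -0.50. Met and Mst1r were 0.084 apart, so that Mst1r stood at position 133 among the genes most like Met. The members were far from Met otherwise, with 0.25 for Spint2 and 0.30 to 0.36 for the rest.

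Of the other proteases reported to cut the ligands or of the matriptase and hepsin family, tissue plasminogen activator was the 1 that changed. Among 14 measured genes there was 1 rise and 0 falls (7.14%, where 14.7% of all genes were called). The median log2 change was 0.03 (0.01 over all genes), and 9 lay below background. Plat, whose product is best known for activating plasminogen, rose from 9.68 ± 0.05 to 10.97 ± 0.04 (SD, n = 3 each). The log2 change was 1.29 (SE 0.053; limma adjusted p = 1.59e-05). Hepsin (Hpn, 0.09), urokinase (Plau, 0.29), the kallikrein Klkb1 (-0.17), F12 (-0.05) and Tmprss2 (-0.03) were below background in control and were not called. Hgfac, the dedicated activator of hepatocyte growth factor, read 5.87 to 6.27 in control and 5.97 to 6.25 in NICD1 cells, with a change of 0.01. Furin, a convertase with a bright probe set, had a change of 0.06.

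Inhibitors and substrates around matriptase were called at shares near the 14.7% of all genes, but most lay below background. Below it in both groups were 5 of 8 inhibitors and 5 of 9 substrates, with 0 called, against 2.68% of such genes. All calls in these lists were among the 3 inhibitors and 4 substrates above background, a group in which 21.8% of all genes were called. Of 8 measured inhibitors other than the members 0 rose and 1 fell (12.5%), with a median log2 change of 0.06. Serpine2, protease nexin-1, fell from 6.67 ± 0.03 to 6.36 ± 0.05 (SD, n = 3 each; log2 change -0.31, SE 0.052; limma adjusted p = 0.00746). Tfpi, an inhibitor of the coagulation start, had a value of 0.23 that did not pass (adjusted p = 0.126). Of 9 matriptase substrates and partners 1 rose and 1 fell (22.2%), with a median of 0.03. F2rl1, the protease-activated receptor PAR2 that matriptase can cleave, rose from 10.04 ± 0.05 to 11.11 ± 0.02 (SD, n = 3 each; log2 change 1.07, SE 0.052; limma adjusted p = 2.82e-05). The acid-sensing channel gene Asic1 fell by 0.41 on the log2 scale (SE 0.066). Prostasin, Prss8, a partner protease of matriptase, had a value of 0.19, below background in both groups, and did not pass.

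The changes among surface partners of Met were mostly rises. There were 7 rises and 1 fall among 16 measured genes (50.0%), and the median log2 change was 0.09. Of the 16 genes 15 were above background, a group in which 21.8% of all genes were called. The Axl receptor rose by 0.70 (SE 0.065), the heparan sulfate carrier Sdc1 by 0.54 (SE 0.050) and Cd44, a hyaluronan receptor whose splice forms assist Met, by 0.65 (SE 0.064; limma adjusted p = 0.000456, 0.000466 and 0.000595). Egfr, which can be activated together with Met, rose by 0.47. The tetraspanin Cd82, which restrains Met, rose by 0.35. Erbb3, a partner of Met in some tumours, fell by 1.02 on the log2 scale, and the integrin subunit Itgb4 (-0.34) did not pass. The falls numbered 2 without NICD1 replicate 3, 2 with array weights or a second quantile normalisation, 3 with median centring or when the dimmest genes were removed, and 4 under an intensity trend.

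Adaptors and effectors of Met signalling changed in both directions. There were 3 rises and 4 falls among 29 measured genes (24.1%), and the median log2 change was -0.01. As 28 of the 29 were above background, where 21.8% of all genes were called, this share is near the background. Map2k1, the kinase MEK1, rose by 0.58 (SE 0.051), the focal adhesion adaptor Pxn by 0.56 (SE 0.050) and Crk by 0.24 (limma adjusted p = 0.000336, 0.000363 and 0.0360). The kinase Pak1 fell by 0.40 on the log2 scale (SE 0.051), as did Gab2 (-0.58) and the phosphoinositide 3-kinase subunits Pik3cb (-0.37) and Pik3r1 (-0.32). Gab1, the main docking protein of Met, had a value of 0.16 (adjusted p = 0.146), and Grb2 (0.01), Shc1 (0.02) and Ptpn11 (0.06) did not pass. The rises numbered 6 with an intensity trend.

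Attenuators and sheddases also moved both ways, with 3 rises and 5 falls among 21 measured genes (38.1%) and a median log2 change of -0.08. Of the 21 genes 20 were above background, where 21.8% of all genes were called. Spsb1, listed because its product can bind Met, rose by 0.83 (SE 0.057), and whether it attenuates Met was not tested. Socs3, a feedback inhibitor of cytokine receptors, fell by 0.97 on the log2 scale (SE 0.104). The endocytic adaptor Sh3kbp1 (CIN85), which joins Cbl at activated receptors, fell by 0.74 (SE 0.089; limma adjusted p = 0.000111, 0.000892 and 0.00160 for the 3). Timp3, an inhibitor of the sheddases that release the Met ectodomain, fell by 0.66. The ligase gene Cblb rose by 0.30, and Cbl (0.13) did not pass. Lrig3 (-0.26) and Socs1 (-0.31) fell, and Lrig1 (-0.15) and Adam17 (-0.18) did not pass. The rises dropped to 1 when control replicate 2 or 3 or NICD1 replicate 3 was left out. The falls dropped to 3 when control replicate 2 or NICD1 replicate 2 or 3 was left out.

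Listed genes that growth factor receptors, Met among them, commonly induce through Ras and MAP kinases were mostly higher. There were 13 rises and 4 falls among 24 measured genes (70.8%), and the median log2 change was 0.34. All 24 were above background in at least 1 group, where 21.8% of all genes were called. The list was chosen with earlier results of these data known, so its share is a description only. Whether Met signalling changed was not tested. Il1rl1, the interleukin-33 receptor, rose from 4.68, below background, to 7.04, which against the background level is a log2 change of at least 1.30, or at least 2.46-fold. The repressor Snai1 rose by 1.27 (SE 0.085), and Spry2, a feedback inhibitor of receptor tyrosine kinases, fell by 1.16 on the log2 scale (SE 0.056; limma adjusted p = 2.71e-05, 0.000102 and 2.77e-05 for the 3). Its relative Spry4 rose by 0.79. Fosl1 (1.43), Egr1 (0.95), Phlda1 (0.87), Dusp4 (0.87), Plaur (0.55), Mmp14 (0.45) and Ets1 (0.43) were among the other rises, and Ereg (-0.83), Ptgs2 (-0.34) and Ets2 (-0.22) were the other falls. The falls numbered 2 when any 1 of the 6 arrays was left out.

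**Figure D3:**
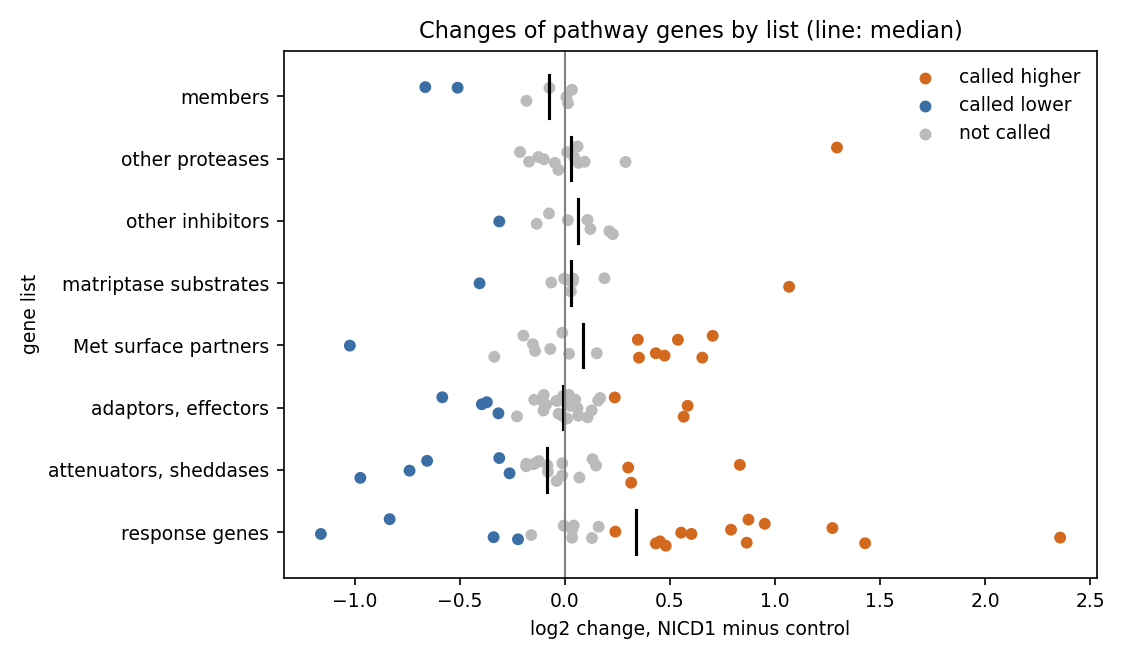
Log2 change, NICD1 minus control, of every measured gene of the 7 members and the 7 pathway lists, with called rises in orange, called falls in blue, uncalled genes in grey and the list median as a black line. The response genes lie mostly to the right (13 rises and 4 falls), and the 2 called members lie to the left.

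Over all pathway lists, with each gene counted once and the members left out, 28 of 121 measured genes rose and 16 fell, or 36.4%, where 14.7% of all genes were called. Of these 121 genes 99 were above background, a group in which 21.8% of all genes were called. Each list was chosen with earlier results of these data known, so its share called is a description and not a test. The medians were 0.02 for the 121 genes and 0.01 for all genes.

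Receptor tyrosine kinases as a family moved in both directions. In a list added after the values had been seen, 10 of 53 measured genes rose and 8 fell (34.0%), with a median log2 change of 0.01, where 14.7% of all genes were called and 21.8% of those above background. Of the 53 genes 31 were above background, and 1 of the rises, that of Flt1 (0.35), lay below it in both groups. Besides Met and Mst1r the falls were those of Erbb3 (-1.02), Mertk (-0.85), Tek (-0.57), Lmtk2 (-0.45), Fgfr3 (-0.43) and Igf1r (-0.22). The rises included the collagen receptor Ddr2 (0.94), Fgfr2 (0.78), Fgfr1 (0.72) and Axl (0.70). Of the relatives Axl and Mertk, both receptors for Gas6, the first rose and the second fell. Their relative Tyro3 (-0.21) did not pass (limma adjusted p = 0.0606). Both receptors of the Met family fell, and a joint direction was also seen in Ddr1 (0.27) and Ddr2, which both rose.

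**Figure D4:**
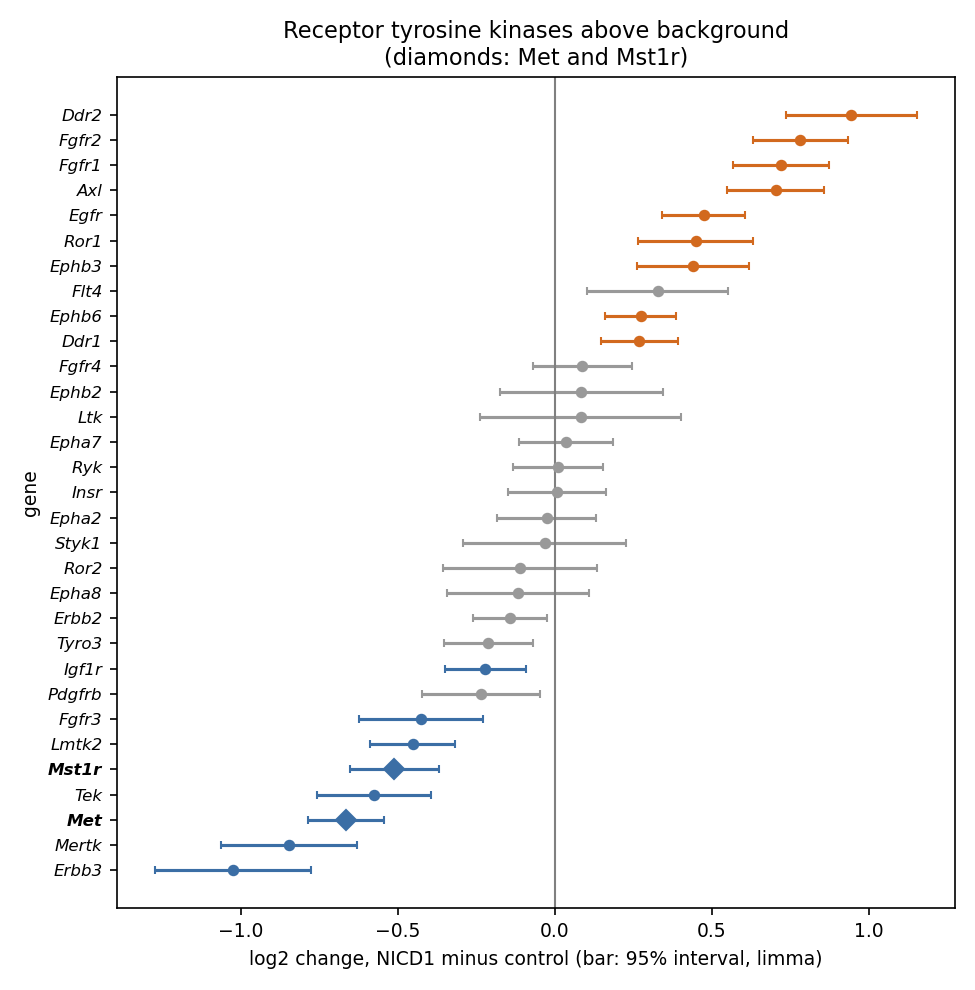
Log2 change, NICD1 minus control, with 95% limma intervals, of the 31 receptor tyrosine kinase genes above background in at least 1 group, ordered by their change; called rises are orange, called falls blue and uncalled genes grey. Met (-0.66) and Mst1r (-0.51), drawn as diamonds, lie among the falls, with Erbb3 (-1.02) and Mertk (-0.85) lower still and Ddr2 (0.94) highest.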

How the data were processed

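Total RNA of 6 samples was measured on Affymetrix whole-transcript arrays. The authors deposited RMA intensity values from Affymetrix Expression Console (submitters' processing notes). RMA equalises arrays, so a shift common to most genes would be lost. Neither the array type nor any version was given. Of 36685 probe sets 18511 had 1 symbol, 575 several and 17599 none. The linear values were put on the log2 scale without a pseudocount and averaged per symbol. limma 3.58.1 (R 4.3.3; lmFit, eBayes) compared the groups, with group as the only term and Benjamini-Hochberg adjustment over all genes at 0.05. In simulated data on 18166 genes, 67 were changed by 0.5, 67 by 1 and 66 by 2 (log2). Of these 46.3%, 94% and 100% were recovered, with 6 false among 166 calls. Far fewer genes changed there than were called in the data, so the shares recovered in the data may differ.

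The members and lists were chosen with earlier results of these data known. The naming rule took the members, up to 3 called genes per list by smallest adjusted p (if none, the smallest p), and the 3 genes most like each called member. Other genes are examples picked after their values were seen. List genes with no value are not analysed here. The labels do not call the replicates separate cultures, so the p-values reflect the spread among these arrays, possibly technical, and the labels record no batch. RefSeq tables (GRCr8) gave names, gene order and start windows. Alternatives are named in the closing section. Figures used matplotlib 3.10.9 in Python 3.11.15.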

Additional observations from a re-analysis of the deposited data

How the results depend on the processing

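Met and Mst1r kept their direction and call under all 13 alternatives: array weights, each array left out in turn, a replicate block, an intensity trend with robust prior, median centring, the brightest probe set of each gene, requantiling, and removal of the dimmest 30% of genes. Their changes ranged from -0.68 to -0.64 and from -0.54 to -0.46, with adjusted p up to 0.00369 and 0.00940, both under the block. The adjusted p of Spint2 ranged from 0.0171 to 0.200 and passed in 2 alternatives (without the dimmest genes and with a trend). Signs turned for 3 uncalled genes below background. Leaving out 1 array gave -0.033 (without control replicate 3) to 0.082 for Hgf, -0.049 (without NICD1 replicate 3) to 0.097 for St14, and -0.097 (without control replicate 3) to 0.067 for Spint1. Hgf was also -0.029 and Spint1 -0.0016 without NICD1 replicate 3, and St14 -0.0052 without NICD1 replicate 1. Requantiling gave -0.0069 for St14 and -0.016 for Spint1. The cause was not tested.

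Deviations of same-numbered arrays correlated at -0.03, -0.01 and -0.01, and no array correlated best with its own number. The numbers were therefore not taken as pairs. With the replicate block there were 999 rises and 920 falls over all genes, against 1354 and 1312; 0 members rose and 2 fell; the pathway lists had 25 rises and 12 falls, with 3 falls among attenuators and 2 among response genes. Signal near background limits what can be said of Hgf, Mst1, St14 and Spint1.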
